A study of Mus musculus with 8 samples.

Results

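Neutrophil granule genes are described here by maturation stage, in RNA-seq libraries that were made from B cells of mouse bone marrow. The 40 genes were chosen by name, as rows of the count table whose Ensembl identifier maps to a listed symbol, out of 54532 genes in all. Each of the 40 was found once, and all 40 passed the filter on low counts. The libraries came from sham-operated mice (Sham, 3 libraries) and from mice whose ovaries were removed (OVX, 3 libraries), a surgical model of estrogen deficiency. All 6 libraries were made from cells that had been taken from bone marrow as B cells with magnetic beads, and no group carried a transgene or drug treatment in the labels. The labels of the RNA-seq libraries give no strain or age and do not say whether each library came from its own mouse, so that p-values measure the spread between these libraries only, which may be technical.

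A library held between 23838775 and 33136701 counted reads, and 15305 genes were tested. Levels are given as CPM, the counts of a gene per 1000000 counts of the library after edgeR's TMM scaling, and they were not divided by gene length, so levels were compared between libraries and not between genes. The 12 general B cell genes, Cd79a, Cd79b and Pax5 among them, held between 0.993% and 1.15% of the counts of every library, and none of them was at 0. A gene counted as called when its adjusted p-value (edgeR's quasi-likelihood test, Benjamini-Hochberg) was below 0.05 and it differed at least 1.6-fold, which no gene of the 15305 met. DESeq2 and limma-voom called 0 genes as well. Without adjustment, 225 genes were higher (1.47%) and 349 lower (2.28%) in OVX at a p below 0.05, which became 53 higher and 480 lower when the libraries were scaled on the B cell genes.

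Neutrophils fill their granules in waves as they mature in bone marrow. Promyelocytes make the primary (azurophil) granules with myeloperoxidase and the serine proteases, myelocytes and metamyelocytes make the secondary (specific) granules with lactoferrin and cathelicidin, and band and segmented cells add gelatinase granules and the receptors with which they leave the marrow. Within the neutrophil line the transcripts are made in the same waves, so that transcripts of different stages mark neutrophils of different age where no other cells make them.

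The 40 genes held 0.321%, 0.440% and 1.18% of the counts in Sham replicates 1 to 3, against 0.508%, 0.150% and 0.164% in OVX replicates 1 to 3. Sham replicate 3 stood highest, OVX replicates 2 and 3 stood lowest, and OVX replicate 1 lay above Sham replicates 1 and 2, so the groups overlapped. In group terms the share was 0.647% ± 0.465 in Sham and 0.274% ± 0.202 in OVX (SD, n = 3 per group). Fewer neutrophils in a sorted fraction and less of this RNA per cell cannot be told apart in such bulk libraries. Of the 40 genes 39 had a negative log2 fold change of OVX against Sham (40 when the libraries were scaled on the B cell genes), where 51.8% of all genes tested did, and the median was -1.25 against -0.0081 over all genes. In 35 of them the value was under -1, which held for 3.22% of all genes. None was called higher or lower (edgeR's quasi-likelihood test, 0% of all genes called in either direction), none had an unadjusted p-value under 0.05, and adjusted p-values ran from 0.811 to 0.984. DESeq2 and limma-voom called none either, with 1 and 7 of the 40 at an unadjusted p-value under 0.05. That number was 34 of 40 when edgeR was run with no low-count filter and 18 without Sham replicate 1, again with none called. Over all genes at such a p-value, 364 were higher and 905 lower of 27416 with no filter. Without Sham replicate 1, 1254 were higher and 1444 lower of 16051. No member separated all OVX from all Sham libraries, which 4.12% of the genes tested did with OVX below and 4.33% with OVX above. Sham replicate 3 was the highest library for 39 of the 40 genes, against 18.3% of all genes, and its level was at least 4 times that of OVX replicate 2 for 37 of the 40, against 3.75% of all genes. The members share their libraries and are not independent of each other. Monocyte, T and NK cell, and basophil, mast cell and eosinophil genes were also highest in Sham replicate 3 as summed lists, at 0.0716%, 0.00457% and 0.0170% of the counts, and their part in the result was not tested. The size of the difference rested on single libraries. The median log2 fold change of the 40 was -0.49 without Sham replicate 3, with 38 of 40 negative, and -2.14 without OVX replicate 1. In the fit without OVX replicate 1, 36 of the 40 had an unadjusted p-value under 0.05 and none was called. Over all 15977 genes of that fit, 297 were higher and 691 lower at such a p-value.

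**Figure D1:**
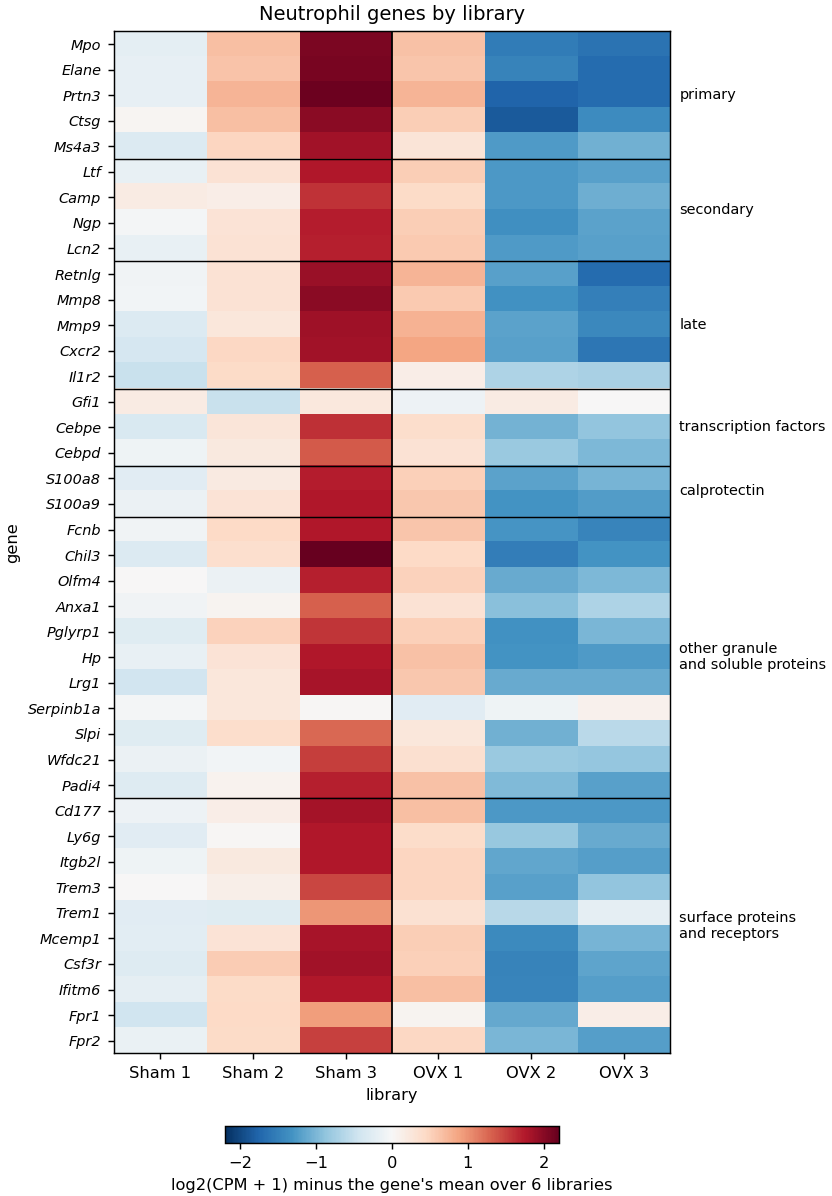
Levels of the 40 neutrophil genes (rows, grouped by stage or role) in each library (columns), as log2(CPM + 1) minus the mean of the gene over the 6 libraries. Sham replicate 3 is the highest library for 39 of the 40 genes, and Gfi1 and Serpinb1a differ little between libraries.

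The primary granule genes were Mpo, Elane, Prtn3, Ctsg and Ms4a3. Mpo (ENSMUSG00000009350), the enzyme that makes hypochlorous acid, had 66.8, 124 and 331 CPM in Sham replicates 1 to 3, against 123, 26.2 and 24.7 CPM in OVX replicates 1 to 3. Sham replicate 3 was far above the rest, and OVX replicate 1 lay next to Sham replicate 2, so the groups overlapped. For Mpo the log2 fold change was -1.59 (standard error 0.78, unadjusted p = 0.0804, adjusted p = 0.811, edgeR quasi-likelihood). Neutrophil elastase, the serine protease encoded by Elane (ENSMUSG00000020125), was at 25.7, 45.2 and 127 CPM in the Sham and 45.1, 9.91 and 8.32 CPM in the OVX libraries, in the same order of replicates. Prtn3 (ENSMUSG00000057729), which encodes proteinase 3, had 22.9, 44.8 and 121 CPM in Sham and 44.4, 6.98 and 7.41 in OVX. Both genes lie side by side on chromosome 10, with 3.14 kb between them in RefSeq's GRCm38.p6. Ctsg (ENSMUSG00000040314), which encodes cathepsin G, had 12.6, 20.02 and 51.3 CPM in Sham and 18.4, 2.68 and 4.11 in OVX, the widest span of the 40 genes with a ratio of 19.2 between the highest and the lowest library. Ms4a3 (ENSMUSG00000024681), a membrane protein of granulocyte and monocyte precursors, had 4.64, 8.62 and 23.8 CPM in Sham and 7.41, 1.90 and 2.33 in OVX. The log2 fold changes of the other four were -1.66 for Elane, -1.69 for Prtn3, -1.75 for Ctsg and -1.68 for Ms4a3, with standard errors from 0.72 to 0.86. In all 5 genes Sham replicate 3 was highest and an OVX library lowest, and the two-sided exact permutation test gave p = 0.2 for each, where 3 libraries against 3 allow no p below 0.1.

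The secondary granule genes were Ltf, Camp, Ngp and Lcn2. Ltf (ENSMUSG00000032496), which encodes the iron-binding lactoferrin, had 307, 427 and 1163 CPM in Sham replicates 1 to 3, against 501, 143 and 149.8 CPM in OVX replicates 1 to 3. Here OVX replicate 1 was the second highest library. Camp (ENSMUSG00000038357), the cathelicidin from which an antimicrobial peptide is cut, had 256, 250.05 and 681 CPM in Sham and 301, 93.9 and 106 in OVX. Ngp (ENSMUSG00000032484), the neutrophilic granule protein, a relative of the cathelicidin precursor, had 462, 589 and 1571 CPM in Sham and 695, 187 and 209.7 in OVX. Lcn2 (ENSMUSG00000026822), a lipocalin that binds bacterial siderophores, had 148, 206 and 546 CPM in Sham and 245, 69.4 and 71.6 in OVX. These 4 genes varied almost in parallel, with a ratio of Sham replicate 3 to OVX replicate 2 between 7.26 and 8.39, below that of every primary gene, whose ratios ran from 12.5 to 19.2. Their log2 fold changes lay between -1.26 and -1.22, with standard errors from 0.56 to 0.65 and unadjusted p-values from 0.0608 to 0.0980 in edgeR's quasi-likelihood test. Ltf for example had 632 ± 463 CPM in Sham and 264 ± 205 in OVX (SD, n = 3 per group), and the exact permutation test gave p = 0.3. Camp, Ngp and Ltf all lie on chromosome 9, with 570 kb from Camp to Ngp and 596 kb from Ngp to Ltf.

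The late genes were Retnlg, Mmp8, Mmp9, Cxcr2 and Il1r2. Retnlg (ENSMUSG00000022651), a resistin-like secreted protein, had 59.8, 78.9 and 239.6 CPM in Sham replicates 1 to 3, against 107, 27.04 and 18.99 CPM in OVX replicates 1 to 3. Mmp8 (ENSMUSG00000005800), neutrophil collagenase, had 41.5, 54.2 and 174 CPM in Sham and 64.98, 16.6 and 14.5 in OVX. Mmp9 (ENSMUSG00000017737), gelatinase B, had 68.4, 101 and 311 CPM in Sham and 144, 36.8 and 30.97 in OVX. For these 3 genes OVX replicate 1 was second to Sham replicate 3 and OVX replicate 3 was the lowest library. Cxcr2 (ENSMUSG00000026180), the chemokine receptor that draws mature neutrophils into blood, had 9.70, 17.9 and 48.6 CPM in Sham and 24.2, 5.04 and 3.57 in OVX. Il1r2 (ENSMUSG00000026073), a decoy receptor for interleukin-1, was counted with few reads, 24, 79 and 151 in Sham and 53, 22 and 24 in OVX, or 1.01, 2.78 and 6.07 CPM and 2.16, 0.776 and 0.726 CPM. The log2 fold changes of the 5 genes were -1.31 for Retnlg, -1.50 for Mmp8, -1.18 for Mmp9, -1.23 for Cxcr2 and -1.45 for Il1r2. Their standard errors ran from 0.70 to 0.83 and unadjusted p-values from 0.0752 to 0.182 (edgeR's quasi-likelihood test, adjusted p = 0.811 for each). Thus all 14 genes of the 3 stages were highest in Sham replicate 3 and lowest in OVX replicate 2 or 3, an order in which 10.3% of all genes tested fell and 38 of the 40 members.

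The sequence before the start site was set beside the stages as a description, and its part in the levels was not tested. RefSeq's GRCm38.p6, the assembly that mm10 in the labels stands for, gave a promoter for 33 of the 40 members, among them all 5 primary, all 4 secondary and 4 late genes. In the 250 bases before the start, GAGGAAG, a form bound by the ETS factor PU.1 (Spi1), was found on either strand in Mpo, Elane, Prtn3 and Ctsg, that is in 4 of 5 primary genes, in 1 of 4 secondary genes (Lcn2), in 1 of 4 late genes (Mmp8) and in 12% of all 27025 genes with a promoter. Of all 33 members 12 carried GAGGAAG, also Csf3r, Itgb2l, Ly6g, Olfm4, Pglyrp1 and S100a8, which were placed in none of the 3 stages. TTGCNNAA, a core form bound by C/EBP factors, was found in none of the 5 primary genes, in 3 of 4 secondary genes (Lcn2, Ltf and Ngp), in 2 of 4 late genes (Mmp8 and Retnlg) and in 10.8% of all genes. Of all 33 members 11 carried TTGCNNAA, also Anxa1, Fcnb, Gfi1, Ly6g, S100a9 and Slpi. The looser TTNNGNAA, which every match of TTGCNNAA also meets, was in 1 primary, 3 secondary and 2 late genes, in 21 of the 33 members and in 40.3% of all genes. GGAANT, the looser ETS form, which overlaps GAGGAAG where a T follows, was in 5 primary, 3 secondary and 4 late genes, in 28 of the 33 members and in 51.1% of all genes. TGTGGTT, a form bound by RUNX factors, was in none of the 33 and in 5.08% of all genes. These 5 motifs were all that was searched, and a match describes letters, not a bound site. Printed here are 2 primary promoters with GAGGAAG in capitals and 2 secondary promoters and 1 late promoter with TTGCNNAA in capitals, on either strand. All lie on the plus strand, at chr10:79886062-79886311 for Elane, chr10:79879417-79879666 for Prtn3, chr9:111019042-111019291 for Ltf, chr9:110419558-110419807 for Ngp and chr9:7558179-7558428 for Mmp8, each ending at the base before the start site.
Elane: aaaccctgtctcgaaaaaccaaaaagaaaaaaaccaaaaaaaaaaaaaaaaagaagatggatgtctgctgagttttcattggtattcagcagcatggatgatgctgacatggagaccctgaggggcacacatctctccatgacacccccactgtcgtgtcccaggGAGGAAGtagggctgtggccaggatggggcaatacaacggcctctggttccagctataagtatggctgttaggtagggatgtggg
Prtn3: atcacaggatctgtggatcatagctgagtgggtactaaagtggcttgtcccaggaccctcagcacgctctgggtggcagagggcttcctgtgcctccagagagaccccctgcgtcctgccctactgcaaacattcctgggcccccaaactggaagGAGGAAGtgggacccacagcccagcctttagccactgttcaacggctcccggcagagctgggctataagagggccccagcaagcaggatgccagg
Ltf: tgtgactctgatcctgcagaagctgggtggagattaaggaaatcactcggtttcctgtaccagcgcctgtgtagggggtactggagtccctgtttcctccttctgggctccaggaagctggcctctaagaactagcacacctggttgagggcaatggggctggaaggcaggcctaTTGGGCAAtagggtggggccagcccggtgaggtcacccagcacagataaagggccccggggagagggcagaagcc
Ngp: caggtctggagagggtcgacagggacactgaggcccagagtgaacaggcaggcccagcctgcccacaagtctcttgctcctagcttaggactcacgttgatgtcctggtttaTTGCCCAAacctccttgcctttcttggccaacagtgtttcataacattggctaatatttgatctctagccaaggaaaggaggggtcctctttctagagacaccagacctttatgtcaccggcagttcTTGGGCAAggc
Mmp8: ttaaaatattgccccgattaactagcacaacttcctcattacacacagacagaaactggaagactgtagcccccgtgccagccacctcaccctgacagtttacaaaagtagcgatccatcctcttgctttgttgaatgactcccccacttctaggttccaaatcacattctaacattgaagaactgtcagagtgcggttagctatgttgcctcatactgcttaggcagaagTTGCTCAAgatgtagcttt
The match began 85 bases before the start in Elane and 95 in Prtn3, and 75 before it in Ltf, 138 and 11 in Ngp and 19 in Mmp8.

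To contrast the stages, the reads of each stage were summed per library. The 5 primary genes held 0.0132%, 0.0249% and 0.0657% of the counts in Sham replicates 1 to 3, against 0.0238%, 0.00467% and 0.00468% in OVX replicates 1 to 3. The 4 secondary genes held 0.117%, 0.150% and 0.397% in Sham and 0.175%, 0.0483% and 0.0536% in OVX. The 5 late genes held 0.0180%, 0.0260% and 0.0782% in Sham and 0.0343%, 0.00846% and 0.00686% in OVX. Counting error was small beside these differences, as the lowest share, 0.00467% for the primary genes in OVX replicate 2, rested on 1352 reads with a 95% Wilson interval from 0.00443% to 0.00492%. The highest share was 14.1 times the lowest for the primary genes, 8.23 times for the secondary and 11.4 times for the late genes. As these are sums over genes named for the stages, they are given as a description with no test.

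**Figure D2:**
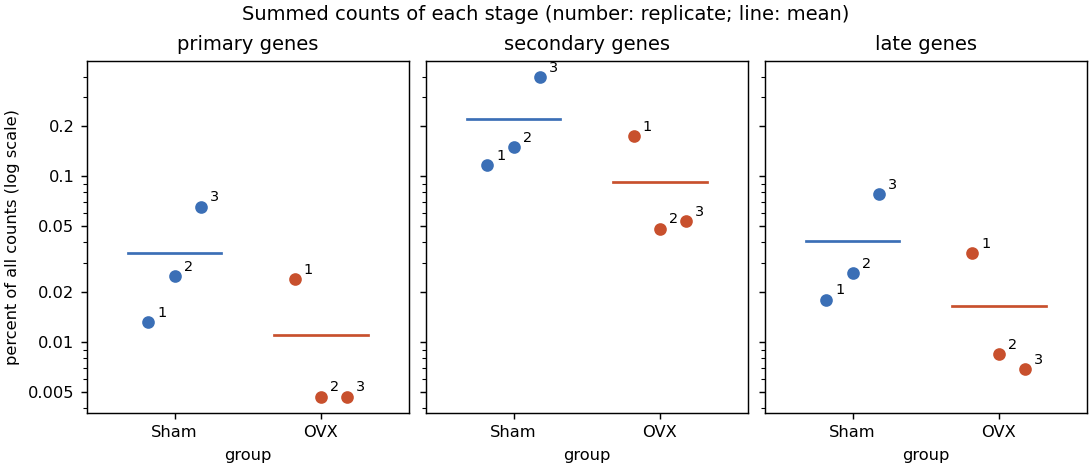
Percent of all counts of a library (vertical axis, log scale) held by the primary, secondary and late genes in Sham and OVX, with the replicate number beside each point and a line at the group mean. In each stage OVX replicate 1 lies within the range of the Sham libraries and OVX replicates 2 and 3 lie below it.

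The stages did not keep the same proportion in every library. The log2 ratio of late to primary reads was 0.44, 0.068 and 0.25 in Sham replicates 1 to 3, against 0.53, 0.86 and 0.55 in OVX replicates 1 to 3. In this ratio each OVX library exceeded each Sham library, by 0.081 at the closest, between OVX replicate 1 and Sham replicate 1, with 0.25 ± 0.19 in Sham and 0.64 ± 0.18 in OVX (SD, n = 3 per group). Read as a ratio, late genes had between 1.05 and 1.36 reads for each primary read in Sham and between 1.44 and 1.81 in OVX. With the mean log2 level of the genes in place of their summed reads the groups also did not overlap, with 0.044, -0.15 and -0.11 in Sham and 0.19, 0.60 and 0.24 in OVX. The separation was thin when the most counted gene of each stage, Mpo and Mmp9, was left out of the summed reads. The OVX minus Sham difference of the log2 ratio was then 0.36, but OVX replicates 1 and 3 lay only just above Sham replicate 1. For levels of single genes, a different measure from a ratio between groups of genes, 4.33% of those tested separated in that direction. That share gives no rate for such ratios. The ratios were not tested, and their genes were chosen with earlier results of these data known. Monocyte precursors also make Ms4a3, and the monocyte genes Ly6c2, Ccr2, F13a1, Fn1 and Cx3cr1 had the library order of the primary genes. Other monocyte genes listed did not. The part of monocyte precursors in these ratios was not tested. The secondary to primary log2 ratio was 3.15, 2.60 and 2.60 in Sham replicates 1 to 3, against 2.87, 3.37 and 3.52 in OVX replicates 1 to 3. Its groups overlapped, since Sham replicate 1 lay above OVX replicate 1, with 2.78 ± 0.32 in Sham and 3.25 ± 0.34 in OVX (SD, n = 3 per group). The late to secondary log2 ratio was -2.70, -2.53 and -2.35 in Sham replicates 1 to 3, against -2.35, -2.51 and -2.97 in OVX replicates 1 to 3, with -2.53 ± 0.18 in Sham and -2.61 ± 0.32 in OVX (SD, n = 3 per group), and here the difference was smaller than the spread within either group. Pairing each late gene with each primary gene, 23 of 25 pairs had a higher mean log2 ratio in OVX, as had 20 of 20 pairs of a secondary and a primary gene and 9 of 20 pairs of a late and a secondary gene. All OVX libraries were above the Sham libraries in 7, 3 and 0 of these pairs, so most single pairs overlapped between the groups. The pairs share genes and libraries.

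**Figure D3:**
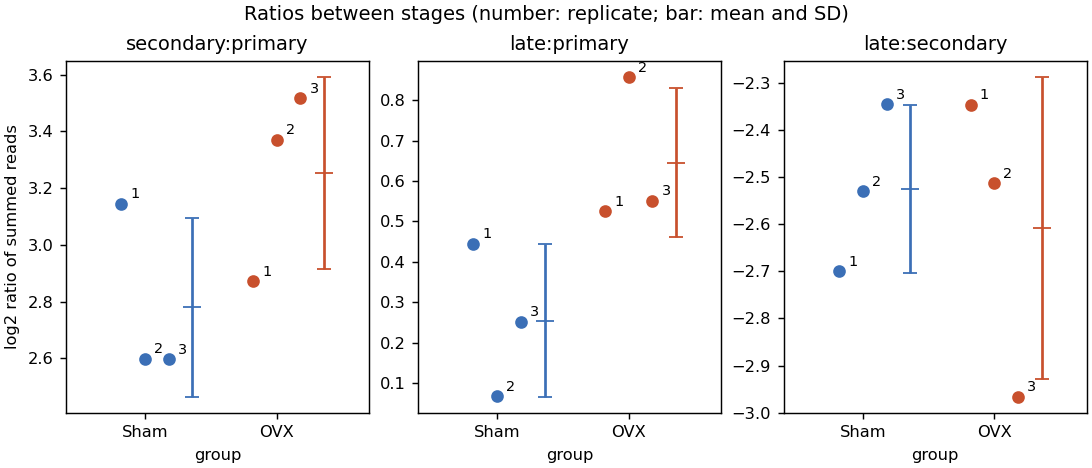
Log2 ratio of the summed reads of 2 stages (vertical axis) in each library, with the replicate number beside each point and the mean and SD of a group beside it. For late to primary reads the OVX libraries lie from 0.53 to 0.86 and the Sham libraries from 0.068 to 0.44, whereas the groups overlap in the other ratios.

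Among the transcription factors, Cebpe (ENSMUSG00000052435), without which secondary granules are not made, had 6.24, 9.99 and 27.05 CPM in Sham replicates 1 to 3, against 10.9, 3.49 and 4.02 CPM in OVX replicates 1 to 3, the same order of libraries as Ltf. Cebpd (ENSMUSG00000071637), a C/EBP factor of later granulocytes, had 7.63, 9.78 and 22.6 CPM in Sham and 10.6, 4.27 and 3.66 in OVX. Gfi1 (ENSMUSG00000029275), a repressor needed for granulocyte maturation that lymphoid precursors also express, had 33.7, 20.7 and 34.9 CPM in Sham and 27.3, 33.4 and 29.5 in OVX. Gfi1 was thus close to level over the libraries, with a ratio of 1.69 between the highest and the lowest. The log2 fold changes were -1.24 (standard error 0.64) for Cebpe, -1.12 (standard error 0.53) for Cebpd and 0.019 (standard error 0.20) for Gfi1, which was the one member with a positive value and turned negative, -0.077, when the libraries were scaled on the B cell genes. S100a8 (ENSMUSG00000056054) and S100a9 (ENSMUSG00000056071), the subunits of the cytosolic calcium-binding complex calprotectin, lie 22.6 kb apart on chromosome 3. S100a8 had 387, 528 and 1526 CPM in Sham and 658, 204 and 225 in OVX. S100a9 had 666, 898 and 2486 CPM in Sham and 1095, 294 and 311 in OVX. Between Sham replicate 3 and OVX replicate 2 they differed by ratios of 7.49 and 8.46, close to the secondary genes, and their log2 fold changes were -1.17 and -1.25.

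Another 11 members encode further granule or soluble proteins, Fcnb, Olfm4, Anxa1, Pglyrp1, Hp, Lrg1, Slpi, Wfdc21 and Padi4 among them, and 10 of these 11 were highest in Sham replicate 3. Their log2 fold changes ran from -1.77 to -0.16 with a median of -1.21, and none was called. Chil3 (ENSMUSG00000040809), a chitinase-like lectin that also marks some macrophages, was at the low end and had 114, 182 and 710.04 CPM in Sham and 191, 48.1 and 55.5 in OVX. Its level in Sham replicate 3 was 14.8 times that in OVX replicate 2, inside the range of the primary genes. Serpinb1a (ENSMUSG00000044734), an inhibitor of elastase, proteinase 3 and cathepsin G, was at the other end with 132, 161 and 138 CPM in Sham and 114, 127 and 145 in OVX. Serpinb1a was the one member whose highest library was Sham replicate 2, and its levels differed by a ratio of 1.42, with a log2 fold change of -0.16 (standard error 0.11). Over the same libraries its targets Elane, Prtn3 and Ctsg differed by ratios of 15.3, 17.3 and 19.2.

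The last 10 members are surface proteins and receptors, and all 10 were highest in Sham replicate 3, with log2 fold changes from -1.44 to -0.46 and a median of -1.28. Csf3r (ENSMUSG00000028859), the receptor of granulocyte colony-stimulating factor, had 23.9, 43.6 and 109 CPM in Sham and 42.6, 9.91 and 12.5 in OVX. Cd177 (ENSMUSG00000052212), a surface protein of neutrophils, had 56.3, 66.9 and 218 CPM in Sham and 96.4, 24.8 and 24.6 in OVX. For Csf3r Sham replicate 2 lay just above OVX replicate 1, as for the primary genes, and for Cd177 it lay below it, as for most late genes. Trem1 (ENSMUSG00000042265), an activating receptor of neutrophils and monocytes, had 3.71, 3.66 and 9.97 CPM in Sham and 6.02, 2.68 and 3.90 in OVX, and OVX replicate 3 lay above Sham replicates 1 and 2. Its log2 fold change was -0.46 (standard error 0.47) and changed sign, to 0.18, without Sham replicate 3. In the order of libraries 26 of the 40 members ran from Sham replicate 3 through OVX replicate 1, Sham replicate 2 and Sham replicate 1 to OVX replicates 2 and 3 in either order, including 3 of 4 secondary and 4 of 5 late genes. A further 8 had Sham replicate 2 above OVX replicate 1 and the rest of that order, and these were all 5 primary genes with Il1r2, Slpi and Csf3r. Camp and Olfm4 had Sham replicate 1 above Sham replicate 2, and Gfi1, Serpinb1a, Trem1 and Fpr1 had orders of their own.

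**Figure D4:**
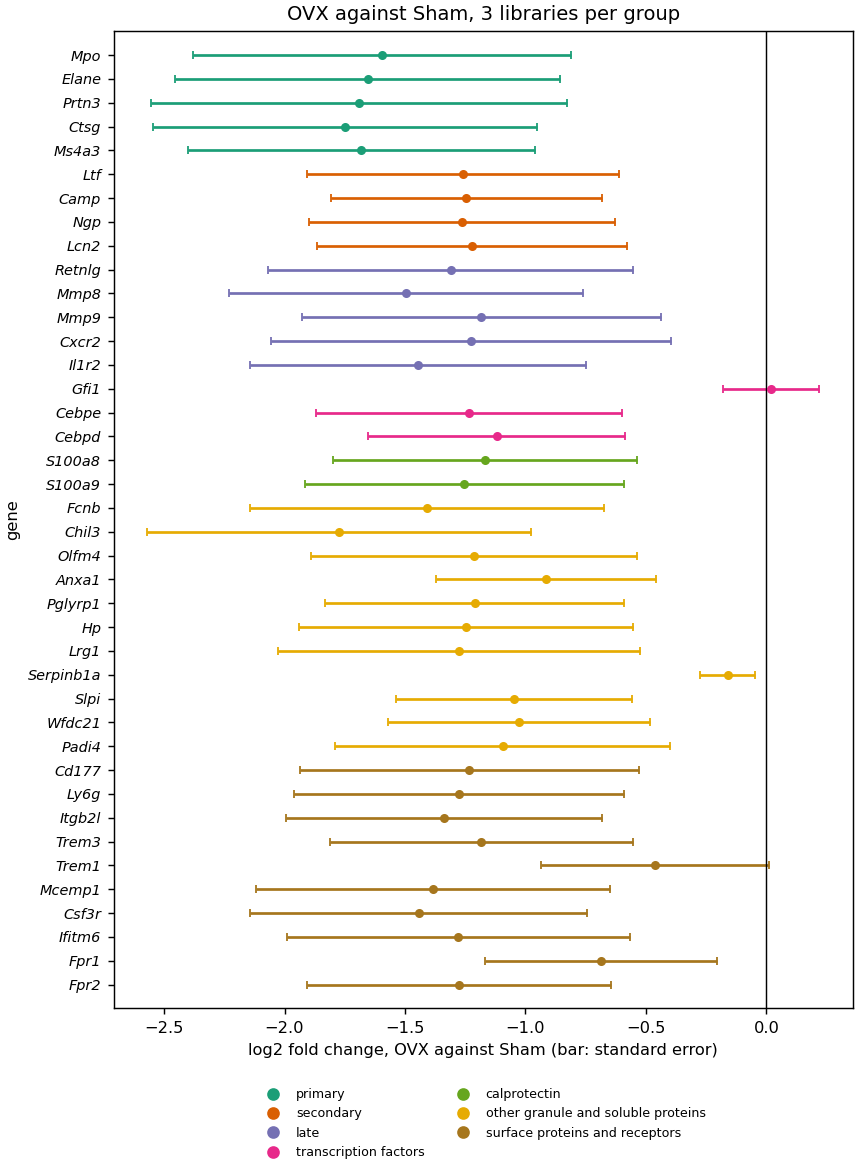
Log2 fold change of OVX against Sham (horizontal axis) for the 40 genes with its standard error from edgeR's quasi-likelihood fit, 3 libraries per group. Values run from -1.77 for Chil3 to 0.019 for Gfi1, which was -0.077 with scaling on the B cell genes, and the primary genes lie between -1.75 and -1.59.

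Beyond the members, 43 further genes of neutrophil function were listed, such as those of the NADPH oxidase, lysozymes, adhesion and chemoattractant receptors and myeloid regulators. Of these 40 were tested, 37 with a negative and 3 with a positive log2 fold change, none was called, 2 (Cebpa and Selplg) had an unadjusted p-value under 0.05, and Lyz1, Bpi and Ltc4s had too few reads. Their median log2 fold change, -0.59, lay between that of the members and that of all genes, and 25 of the 43 were highest in Sham replicate 3. The lowest values were those of the C-type lectin receptor Clec4d, -1.46 (standard error 0.76), and of the inhibitory receptor Lilrb4a, -1.41 (standard error 0.86). Clec4d had 1.94, 4.29 and 10.2 CPM in Sham and 4.07, 1.16 and 0.817 in OVX, again with Sham replicate 3 on top. Lyz2 (ENSMUSG00000069516), the lysozyme of neutrophils, monocytes and macrophages, had 394, 567 and 1069.9 CPM in Sham and 576, 182 and 322 in OVX. Cybb (ENSMUSG00000015340), the catalytic subunit of the phagocyte oxidase, which B cells express as well, had 168, 302 and 356 CPM in Sham and 235, 142 and 147 in OVX, a narrower span with a ratio of 2.51. At the positive end were Cxcr4 (ENSMUSG00000045382), the receptor that retains neutrophils and B cell precursors in marrow, with 0.47 (standard error 0.26), and Srgn (ENSMUSG00000020077), the granule proteoglycan serglycin, with 0.077 (standard error 0.064), which was -0.012 with scaling on the B cell genes. Cxcr4 had 605, 301 and 361 CPM in Sham and 460.02, 655 and 638 in OVX, and its 2 highest libraries, OVX replicates 2 and 3, were the lowest for most members. Reads of the chitinase-like, Ly6, formyl peptide receptor, lysozyme and Lilrb genes may have been split with paralogs of nearly the same sequence, and values of Chil3, Ly6g, Fpr1, Fpr2, Lyz2 and Lilrb4a are uncertain.

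Transcripts of other cells varied with the members in part, and the summed B cell genes ran the other way. The 12 B cell genes held 1.08%, 1.05% and 0.993% of the counts in Sham replicates 1 to 3, against 1.02%, 1.15% and 1.12% in OVX replicates 1 to 3, lowest where the neutrophil genes were highest. Of the 12, 10 had a positive log2 fold change with TMM scaling, none was called, and Ebf1, a factor that specifies B cells, was higher in each OVX than in each Sham library, with a log2 fold change of 0.35 (standard error 0.12, unadjusted p = 0.0181, adjusted p = 0.811, edgeR quasi-likelihood). The 10 monocyte genes held 0.0301%, 0.0580% and 0.0716% of the counts in Sham and 0.0407%, 0.0233% and 0.0289% in OVX, and 5 of the 10 were highest in Sham replicate 3. Ly6c2, a surface protein of inflammatory monocytes, had 30.95, 62.1 and 151 CPM in Sham and 56.1, 15.5 and 12.97 in OVX, and Ccr2, the receptor with which monocytes leave marrow, had 10.9, 22.9 and 56.1 CPM in Sham and 21.2, 4.51 and 2.69 in OVX. These 2 genes with F13a1, Fn1 and Cx3cr1 had the library order of the primary genes, whereas Csf1r, Ms4a6c, Ly86 and Ms4a4c were highest in Sham replicate 2 and Klf4 in OVX replicate 1. The log2 fold changes of the 10 ran from -1.68 for Fn1 to -0.14 for Ly86 and -0.00048 for Klf4, with a median of -0.98, and none was called. The 10 basophil, mast cell and eosinophil genes held 0.00703%, 0.00958% and 0.0170% in Sham and 0.0100%, 0.00436% and 0.00410% in OVX, with 8 of 10 highest in Sham replicate 3. Of the 6 stem and progenitor genes 3 were highest there, among them Cd34 with 2.66, 2.43 and 9.08 CPM in Sham and 3.42, 0.881 and 1.603 in OVX. The 10 macrophage genes held 0.128%, 0.274% and 0.0715% in Sham and 0.0672%, 0.0751% and 0.227% in OVX, so that Sham replicate 2 and OVX replicate 3 were highest and none of the 10 peaked in Sham replicate 3. The 8 T and NK cell genes held 0.00211%, 0.00369% and 0.00457% in Sham and 0.00219%, 0.00146% and 0.00387% in OVX, with 6 of 8 highest in Sham replicate 3. OVX replicate 3 was second in the sum, but there Cd4 alone gave 1081 of the 1281 reads of the list. Each other gene of the list had between 3 (Cd3e) and 96 (Klrb1c) reads in that library, so this second place rested on Cd4. The 8 erythroid genes held between 0.0138% and 0.0477%, with the most in Sham replicate 2. None of the genes of these lists was at 0 in any library, and their part in the levels of the neutrophil genes was not tested.

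**Figure D5:**
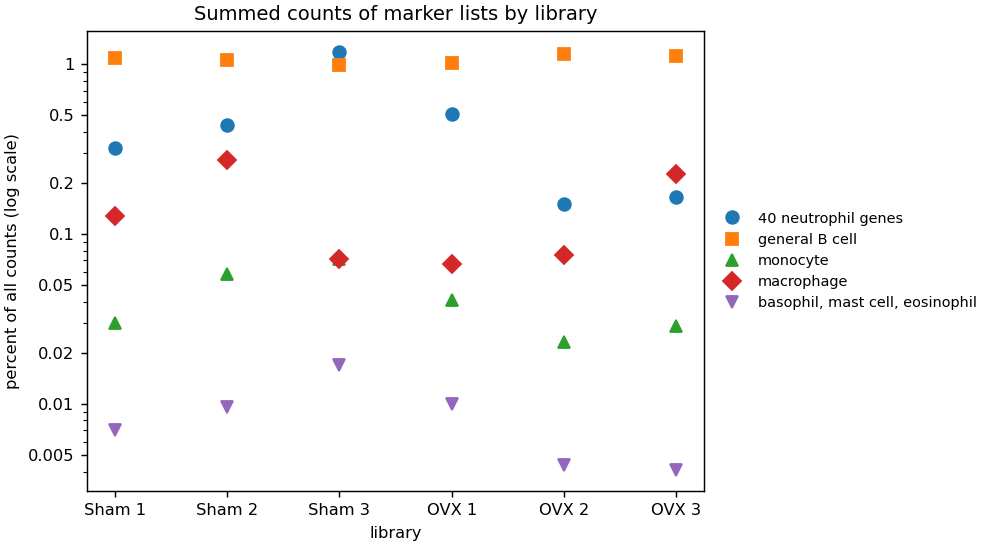
Percent of all counts (vertical axis, log scale) held in each library by the 40 neutrophil genes and by marker lists of B cells, monocytes, macrophages, and basophils with mast cells and eosinophils. The neutrophil genes reach 1.18% in Sham replicate 3 and 0.150% in OVX replicate 2, the B cell genes are lowest in Sham replicate 3 (0.993%) and highest in OVX replicate 2 (1.15%), and the macrophage genes peak in Sham replicate 2 and OVX replicate 3.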

How the data were processed

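RNA-seq counts of 3 Sham and 3 OVX libraries were used, grouped by the sample titles. A ChIP-seq sample of HIF-1α and 1 input sample were left out of the analysis. Per Ensembl gene, the authors deposited unnormalized read counts. The submitters' processing notes name CASAVA, Bowtie 0.12.2 and mm10, without giving their roles, and the counting tool, annotation and strand setting are not given in the sources used here, so overlapping genes and close paralogs may share reads. Symbols were matched to 54409 of 54532 identifiers. The members, gene lists and motifs were chosen with earlier results of these data known.

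In R 4.3.3, genes were kept by edgeR's filterByExpr (15305 of 54532), scaled by TMM and tested with edgeR 4.0.16 (quasi-likelihood, no block, Benjamini-Hochberg adjustment over all genes tested). The standard error is the log2 fold change in absolute value divided by the square root of F. For single genes an exact permutation test (two-sided) was run on log2(CPM + 1). The fit was tested on simulated counts with the mean levels, spread and library sizes of these data and 200 genes changed. It called 77 of the 200 at a 2-fold change, with 3 wrong calls, and 160 at a 4-fold change, with 15 wrong calls. Many true 2-fold changes would thus be missed. With no gene changed it made 1 wrong call. The changed genes were drawn at random from all genes tested, and counts varied independently between genes. The 40 members had standard errors up to 0.86 and mostly rose and fell together across libraries, so these rates need not hold for them. Alternatives were DESeq2 1.42.0, limma-voom (limma 3.58.1), RLE, library size only, scaling on 12 B cell genes, no filter, no fold threshold, a replicate block and each library left out. Genes named are all primary, secondary and late members, the transcription factors and calprotectin, the extremes and the most counted gene of each other group, members that were called, filtered out or separated the groups, the 2 highest and 2 lowest pathway genes, and Lyz2 and Cybb. Other genes were named after their values were seen. Depth was 23838775 to 33136701 counts per library, and the 15 pairs of libraries differed by 9.46 to 74.13 times sampling noise (chi-square per degree of freedom), so none was a repeat of another. Intervals cover counting error only, as no molecular identifiers were named in the sources used here.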

Additional observations from a re-analysis of the deposited data

How the results depend on the processing

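No member was called higher or lower under any of the 14 alternatives, and the lowest adjusted p-value of a member was 0.273, when edgeR's quasi-likelihood test left out Sham replicate 1. Of 390 values of 30 named genes, 5 changed sign. Gfi1, at 0.019, was -0.077 with scaling on the B cell genes, -0.19 without Sham replicate 2 and -0.062 without OVX replicate 2, and ran from -0.19 to 0.14 as single libraries were left out. Trem1, at -0.46, was 0.18 without Sham replicate 3 and -0.81 without OVX replicate 1, and Srgn was -0.012 with scaling on the B cell genes. The number of members at an unadjusted p-value under 0.05 was 0. It was 34 with no low-count filter, 7 with limma-voom, 1 with DESeq2 and 1 with scaling on the B cell genes. Without Sham replicates 1, 2 and 3 it was 18, 2 and 0, and without OVX replicates 1, 2 and 3 it was 36, 0 and 0. Over all genes the count at an unadjusted p-value under 0.05, 225 higher and 349 lower, was 364 and 905 with no low-count filter and 74 and 132 with the replicate block. It was 1254 and 1444 without Sham replicate 1 and 297 and 691 without OVX replicate 1. Where a library was left out, fewer libraries entered the fit, and otherwise the cause was not tested. When one library was left out, the OVX minus Sham difference of the late to primary log2 ratio, 0.39, ran from 0.28 to 0.49, that of the secondary to primary ratio, 0.47, from 0.34 to 0.66, and that of the late to secondary ratio, -0.083, from -0.21 to 0.10. Without the most counted gene of each stage these differences were 0.36, 0.56 and -0.20.

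Replicate numbers gave no sign of pairing between Sham and OVX libraries. Deviations from the group mean of libraries with the same number correlated across genes (not independent of each other) at -0.41, -0.189 and -0.279, and Sham replicate 1 correlated best with OVX replicate 2. Such deviations cancel out within each group, so the correlations are tied to each other. They cannot show whether libraries with the same number shared a batch. With the replicate block 0 members were called higher and 0 lower, and the median log2 fold change of the members was -1.32. Read counts of a member ran from 22 per library (Il1r2) upwards, and the part of depth in the spread between libraries was not tested.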
